A study of Mus musculus with 4 samples.

Results

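The nuclear-encoded subunits of the mitochondrial respiratory chain and ATP synthase were followed in immune cells of neonatal mouse hearts. They were chosen by name, as every gene symbol that starts with Nduf (complex I), Uqcr (complex III), Cox4 to Cox8 by stem (complex IV) or Atp5 (ATP synthase), pseudogene symbols left out, with at least 100 UMIs (unique molecular identifiers, each standing for 1 captured transcript) in the cells kept. The rule gave 87 of 89 such symbols, among 32285 genes in the files. The symbols left out were Cox7b2 with 0 UMIs and Cox8c with 1 UMI, and the members closest to the threshold were Cox8b with 479 and Cox4i2 with 616 UMIs. No measured difference between groups or cell types entered this rule, though earlier results of these data were known when it was made.

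Complexes I, III and IV pass electrons from NADH to oxygen and pump protons across the inner mitochondrial membrane, and ATP synthase uses the returning protons to make ATP. The catalytic core is shared between genomes: mitochondrial DNA encodes some of the core subunits of these complexes, and the nucleus encodes all the others, so both genomes must be expressed for a working chain. In the immune system, oxidative phosphorylation is known for its part in tissue macrophages and dividing lymphocytes, whereas mature neutrophils are known to carry few mitochondria and to rely on glycolysis. Several complex IV subunits have a second gene used in heart and skeletal muscle, testis, lung or hypoxic tissue.

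The series holds 1 library of live CD45+ sorted cells for each of 4 groups of C57BL/6 mice, read with the 10x Genomics 3′ v3 chemistry. Both sham groups and both infarct groups were operated on postnatal day 2 and the hearts, without atria, were taken 7 days later. The groups were PD1 +/- after sham surgery (heterozygous sham), PD1 -/- after sham surgery (knockout sham), PD1 +/- after myocardial infarction (heterozygous infarct) and PD1 -/- after myocardial infarction (knockout infarct), and values are listed in that order of libraries throughout. Every group therefore carries a deleted Pdcd1 allele, the genotype controls being heterozygous rather than wild type. The labels do not say how many hearts were pooled per library. With 1 library per group no test between groups was possible, and the 95% intervals given in brackets cover counting error only, not the spread between animals.

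Cells with at least 500 UMIs, 200 genes and at most 10% mitochondrial UMIs numbered 5376, 6407, 5074 and 7104, with median depths between 6559.5 and 8632 UMIs. They were assigned to 18 classes by marker genes, and each class name means a cell like that type by its markers. Levels are CPM, the UMIs of a gene or list per 1000000 UMIs of the same cells. The 4 libraries shared between 16 and 31 cell barcodes with another library. Pdcd1 itself gave 38, 52, 86 and 197 UMIs in the cells used and was not lower in the knockout libraries; the extent of the deletion is not given in the sources used here, so 3′ counts of this gene do not check the genotype. Droplets with markers of a second lineage (13.1% of the cells, from 10.7% in heterozygous sham to 16.4% in knockout infarct) and cells of no class (5.32%) were set aside, which left 19548 of 23961 cells. The knockout infarct library stands apart in sex-linked RNA, with 0.0204 CPM of Y-linked genes and 1057 of Xist, against 95.3 to 145 and 232 to 401 in the others. Erythroid RNA was also highest there, at 239 CPM against 72.8 to 142, and cardiomyocyte RNA was higher in the sham libraries, at 167 and 150, than in the infarct libraries, at 98.5 and 108.

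Promoters were examined first, because the members are known to be driven from the nucleus by shared factors. RefSeq (GRCm38.p6) gave a sequence from 250 bases before to 50 bases after the start for 72 of the 87 members. Members without an entry included Atp5a1, Ndufaf6, Uqcrc2, Cox4i2, Cox4i1, Ndufb9, Uqcrq, Uqcrb, Atp5mpl, Ndufa2, Cox6a2, Cox6c, Ndufa4l2 and Ndufs1. Windows of 200 bases are printed for 6 members chosen for the matches they hold, as examples of the motifs marked except YY1, which has no match in them, 4 from the common chain and 2 muscle forms: Uqcrh (chr4:116075061-116075260, minus strand), Cox8a (chr19:7217607-7217806, minus), Atp5k (chr5:108434390-108434589, minus), Atp5g3 (chr2:73911317-73911516, minus), Cox7a1 (chr7:30183981-30184180, plus) and Cox8b (chr7:140900437-140900636, minus). Each runs 5′ to 3′ from 190 bases before to 10 bases after the start, and capitals mark matches to the NRF1 motif (GCGC, any base, then TGCGC), the ETS motif CCGGAAGT, the YY1 motif AAGATGGC, the ERR motif TCAAGGTCA, CCAAT or TATAAA on either strand.
Uqcrh: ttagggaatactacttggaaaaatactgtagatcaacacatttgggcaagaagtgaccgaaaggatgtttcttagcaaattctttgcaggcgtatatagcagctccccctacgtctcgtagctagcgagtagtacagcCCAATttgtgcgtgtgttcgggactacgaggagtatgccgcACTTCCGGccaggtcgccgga
Cox8a: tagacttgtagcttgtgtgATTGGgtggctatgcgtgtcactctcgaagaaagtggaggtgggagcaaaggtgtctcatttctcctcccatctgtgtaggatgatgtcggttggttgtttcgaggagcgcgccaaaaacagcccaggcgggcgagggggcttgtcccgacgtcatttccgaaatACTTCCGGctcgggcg
Atp5k: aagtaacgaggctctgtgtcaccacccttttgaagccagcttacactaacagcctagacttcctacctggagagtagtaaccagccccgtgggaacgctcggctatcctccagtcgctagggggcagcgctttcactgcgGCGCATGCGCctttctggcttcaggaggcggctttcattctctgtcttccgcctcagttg
Atp5g3: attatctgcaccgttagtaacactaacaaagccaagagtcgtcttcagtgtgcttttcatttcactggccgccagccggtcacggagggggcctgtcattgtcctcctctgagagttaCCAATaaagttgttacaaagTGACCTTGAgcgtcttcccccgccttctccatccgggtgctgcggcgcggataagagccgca
Cox7a1: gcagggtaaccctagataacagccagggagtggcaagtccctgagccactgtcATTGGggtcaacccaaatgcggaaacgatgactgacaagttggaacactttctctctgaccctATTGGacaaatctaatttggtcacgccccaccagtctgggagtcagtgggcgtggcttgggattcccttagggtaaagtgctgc
Cox8b: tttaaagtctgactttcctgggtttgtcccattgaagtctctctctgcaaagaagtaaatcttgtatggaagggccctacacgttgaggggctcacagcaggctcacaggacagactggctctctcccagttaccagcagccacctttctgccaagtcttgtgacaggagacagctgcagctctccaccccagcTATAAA

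Both Uqcrh and Cox8a carry an ETS match on the reverse strand close to the start, Atp5k carries an NRF1 match, which is its own reverse complement, and Atp5g3 carries the ERR match. The muscle isoform Cox7a1 shows only CCAAT matches in its window, and Cox8b shows only a TATAAA match. Over all members with a sequence, 17 of 72 held the NRF1 motif (23.6%, exact binomial interval 14.4% to 35.1%), against 5.19% of the 27025 genes in the table. The YY1 motif stood in 11 members, or 15.3% against 3.19% of all genes, and the ETS motif in 5, or 6.94% against 4.31%. With NRF1, ETS and YY1 counted together, 31 of 72 members (43.1%) held at least 1 match, against 11.7% of all genes. Most members with a sequence therefore held none of these, among them the common complex IV genes Cox5a, Cox5b, Cox7a2 and Cox7c. The ERR motif was found in 1 member, or 1.39% against 0.466%. Of the general elements, CCAAT was as frequent in members as in all genes (43.1% and 41.1%), as was the E-box CACGTG (8.33% and 8.09%), and TATAAA stood in 9.72% of members against 15.7% of all genes. A match only describes these letters in these windows, a gene with several starts counted if any of its sequences held the motif, and factor binding was not measured.

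Within the 4816923 UMIs of the members, the 17 ATP synthase genes gave 32.0%, the 12 common complex IV genes 29.5%, the 29 accessory subunits of complex I 24.7%, the 8 complex III genes 9.76% and the 7 core subunits of complex I 3.09%. The 8 assembly factors of complex I, which build the complex but do not stay in it, gave 0.720%, and the 6 tissue isoforms of complex IV gave 0.155%. The assay counts transcript 3′ ends, so these shares are of captured transcripts and are not divided by length. Many of these genes have processed pseudogenes in the mouse genome, and reads that match both could have been lost or split in counting, so levels of different genes are approximate. The pseudogene-like symbol Ndufb1-ps, left out by the rule, and Cyc1, a complex III subunit whose name the rule does not catch, are not counted.

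In macrophages, the class with the most cells (1590, 2675, 2275 and 3129), the most counted complex IV member was Cox4i1 (mouse chromosome 8, 120668222 to 120674207 in GRCm38), which helps to form the docking surface of cytochrome oxidase. Its level was 1279, 1196, 1072 and 1147 CPM, lowest in heterozygous infarct. Cox8a, the smallest common subunit of the same enzyme, was at 745, 768, 746 and 863, highest in knockout infarct and level in the other 3. For ATP synthase, Atp5e, the epsilon subunit of the central stalk, was at 575, 639, 663 and 760 CPM, so that both infarct libraries lay above both sham libraries. Atp5h, subunit d of the peripheral stalk, was at 623, 574, 508 and 550, with both infarct libraries below both sham libraries. The members of a single enzyme thus did not share an order of libraries.

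For complex III, the hinge protein Uqcrh was at 535, 535, 538 and 609 CPM and Uqcrb, which binds near the quinone site, at 359, 376, 324 and 349. Among accessory subunits of complex I, Ndufa13 was at 363, 372, 336 and 389 and Ndufa2 at 277, 311, 307 and 343. In these 4 genes knockout infarct was above heterozygous infarct. Of the core subunits, which hold the iron-sulphur clusters and flavin, Ndufs7 was at 163, 149, 128 and 131 and Ndufv2 at 144, 127, 107 and 118 CPM. Both were highest in heterozygous sham and lowest in heterozygous infarct. The leading assembly factors were Ndufaf8 at 55.8, 60.1, 52.9 and 59.1 and Ndufaf2 at 27.8, 27.5, 26.5 and 25.7, a narrow range.

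The summed level of the members differed more between cell classes than between groups. Across the 12 classes with at least 100 cells, thymocyte-like T cells (cells of the T cell gate with Rag1, Rag2, Ptcra or Dntt) were highest in each of the 4 libraries, at 27069, 27169, 29509 and 31727 CPM. Neutrophils were lowest of the 12 in each, at 9702, 8170, 8266 and 9182. Immature neutrophils, too few to be among the 12 (20, 23, 19 and 32 cells), were at 7250, 7296, 7893 and 9859. They were thus below neutrophils in all but knockout infarct, and the low level was not particular to the mature class. The ratio of thymocyte-like T cells to neutrophils was 3.27-fold on average, or 1.71 ± 0.158 on the log2 scale (SD, n = 4 libraries). Between them, the means over libraries were 24418 ± 2024 in NK cells, 23133 ± 2444 in the few endothelial cells, 23114 ± 1654 in classical monocytes, 22122 ± 2118 in type 1 conventional dendritic cells, 21577 ± 3225 in T cells, 21071 ± 2328 in type 2 innate lymphoid cells and 20709 ± 923 in macrophages (SD, n = 4 each). Neighbours in this order differed by less than the SD of either. Read library by library, NK cells, endothelial cells and classical monocytes were above macrophages in all 4 libraries (classical monocytes at 22130, 22177, 22571 and 25577 CPM against 21142, 21029, 19338 and 21328), whereas T cells, type 1 conventional dendritic cells and type 2 innate lymphoid cells were not. Non-classical monocytes (17393 ± 1653), B cells (16838 ± 1317) and basophils (13617 ± 2245) had lower means, and the range of basophils, 12201 to 16952, did not reach down to that of neutrophils, 8170 to 9702.

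Thymocyte-like cells lost the top place when dividing cells were left out. Their share of cells with at least 2 UMIs of a cell cycle list (Mki67, Top2a, Cdk1 and 8 others) was 62.8%, 45.9%, 54.5% and 65.1%. Without such cells the class was highest in 0 of 4 libraries, at 19036, 18067, 17042 and 22215 CPM in 120, 20, 35 and 65 cells. Classical monocytes were then highest in heterozygous sham (21925), knockout sham (21995) and knockout infarct (25389), and type 1 conventional dendritic cells in heterozygous infarct (23721, 22 cells). Neutrophils remained lowest of the 12 classes in all 4 libraries. Dividing thymocyte-like cells were also deeper, at a median of 14288 UMIs in heterozygous sham against 2034 in those with 0 cell cycle UMIs. The part of depth in the change of order was not tested.

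**Figure D1:**
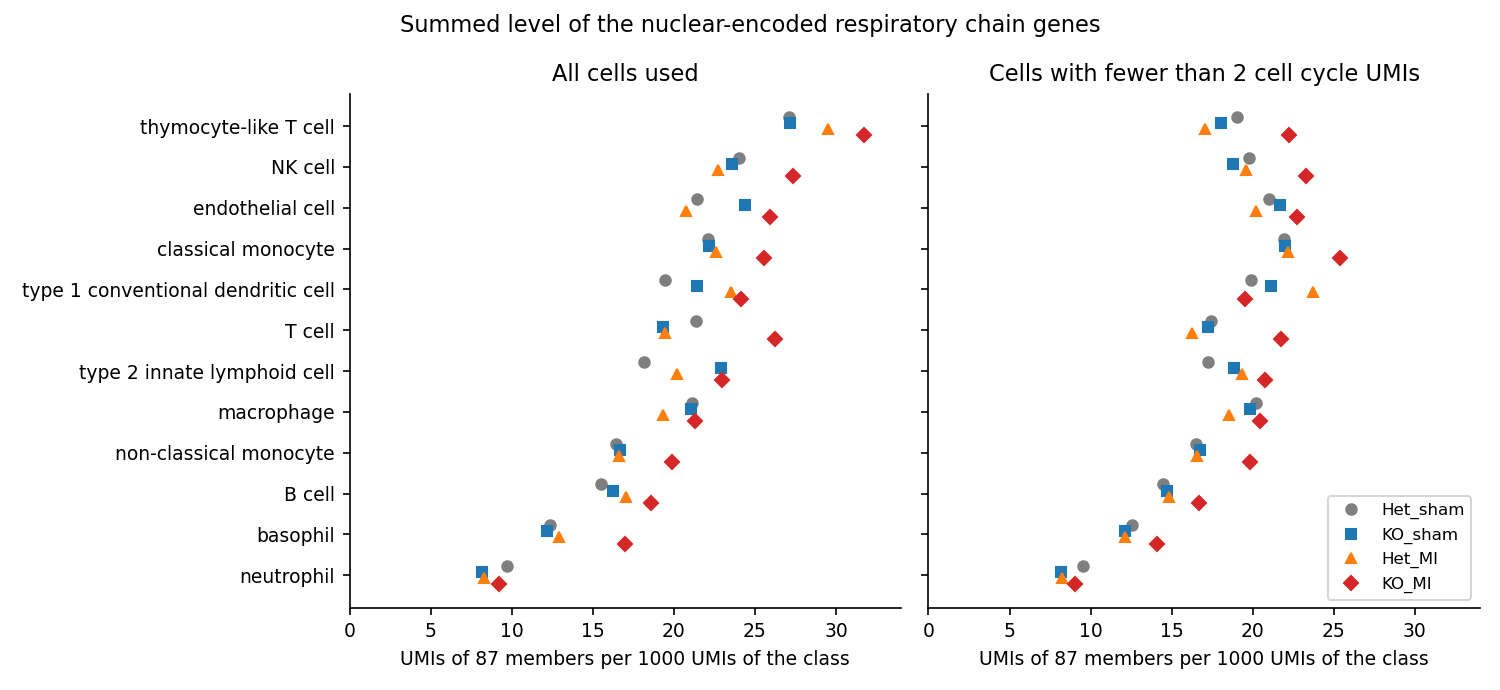
Summed UMIs of the 87 members per 1000 UMIs of the class (x axis) for 12 cell classes (y axis) in the 4 libraries (symbols), with all cells on the left and without dividing cells on the right. On the left thymocyte-like T cells lie at 27.1 to 31.7 and neutrophils at 8.17 to 9.70; on the right thymocyte-like T cells fall among the other classes while neutrophils stay lowest.

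Single members followed the same pattern with differing breadth. Of the 87, 51 were highest in thymocyte-like T cells, 12 in endothelial cells, 7 each in NK cells and classical monocytes and 5 in macrophages, and 66 were lowest in neutrophils and 13 in basophils. The shares of all genes highest or lowest in each class are not given here, so these counts are not read as particular to the members. For the 79 members with UMIs in every one of the 12 classes, the median ratio of highest to lowest class was 4.04. The complex I assembly factor Ndufaf4 had the largest, 20.6-fold, and was the member highest in B cells, at 34.7, 35.9, 36.6 and 43.8 CPM, against 15.6, 14.4, 11.3 and 11.8 in macrophages. B cells exceeded macrophages in all 4 libraries, while the low end rests on 4 UMIs in neutrophils. Ndufaf2, another assembly factor, had a 12-fold range with a low end that also rests on few neutrophil UMIs.

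Ndufc2, an accessory subunit in the membrane arm of complex I, ranged 13.2-fold, from 40.3, 19.7, 19.6 and 31.0 CPM in neutrophils to 379, 344, 358 and 377 in thymocyte-like T cells. Ndufa9, an accessory subunit near the quinone channel, ranged 12.3-fold, from 7.13 in neutrophils to 87.5 in thymocyte-like cells, as means over libraries. Atp5o, the OSCP subunit that ties the ATP synthase head to its stalk, ranged 9.79-fold and was at 500, 360, 511 and 486 in thymocyte-like cells. The groups of libraries did not overlap between these classes for Ndufc2 and Atp5o. Both were named for their wide range over classes, so this separation follows largely from that choice. The share of all genes separated in the same way is not given. At the other end, Ndufa7 varied 1.41-fold, Atp5l 1.78-fold, Cox8a 1.83-fold and Ndufa3 1.86-fold over the classes, so these subunits stayed at similar UMI shares even in neutrophils and basophils. They were singled out after their values were seen.

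Pairs of classes were compared within each library for members with at least 20 UMIs in both. In neutrophils against macrophages, 51 of 52 members were lower in all 4 libraries and 0 higher, with a median log2 difference of -1.16. Of the 2309 genes that passed the same filter, 33.7% were lower and 50% higher, with a median of 0.26. Uqcrb (-2.69), Atp5g2, a c-ring gene (-2.61), and Atp5o (-2.57) differed most, and Ndufa3 (-0.16), Atp5l (-0.19) and Cox8a (-0.28) least. Thymocyte-like cells exceeded other T cells in all 4 libraries for 59 of 73 members and fell below for 3, the median being 0.53, beside 54.8% of all genes higher, 18.1% lower and a median of 0.34. Ndufab1, the mitochondrial acyl carrier protein, led at 1.37, and Cox7a2l, which helps to assemble supercomplexes, was at -0.38. The same cells exceeded macrophages for 59 of 73 members and fell below for 1, by a median of 0.49. Over all genes 66.5% were higher, 19.2% lower and the median was 0.55. Knockout sham had 37 thymocyte-like cells and 2675 macrophages, so genes low in thymocyte-like cells tend to fail the filter. Values over all genes therefore lean towards the smaller class, as they also can for neutrophils against macrophages. No conclusion is drawn from setting the members' median beside them.

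B cells were below T cells in all 4 libraries for 51 of 74 members and above for 1, the core subunit Ndufs8, at a mean of 0.30, and the median was -0.34. All genes there had 34.2% lower, 26.0% higher and a median of -0.06. Non-classical monocytes were below classical monocytes for 69 of 74 members and above for 1, with a median of -0.48, against 26.4% and 42.0% of all genes and a median of 0.13. Ndufs8 (-0.94) and Ndufa10 (-0.88) differed most there, and Cox5a, a common subunit of complex IV, was the member that lay above, at a mean of 0.14. The ranges of the 2 monocyte classes' summed levels, 16426 to 19868 and 22130 to 25577, did not overlap. Median depth also differed between them, at 3918 to 4584 UMIs in non-classical and 6654.5 to 7887 in classical monocytes, and its part in the result was not tested.

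The complexes moved together over classes. Across the 48 points of 12 classes in 4 libraries, the summed levels of complex I and complex III had a Pearson r of 0.97, complex I and IV 0.97, complex I and ATP synthase 0.96, and complex III and ATP synthase, the least alike pair, 0.94. The points share libraries, classes and a common denominator, so these values are a description. The members were also alike to the nuclear genes of the mitochondrial ribosome (r = 0.91) and of the citric acid cycle (0.80), less to the cell cycle list (0.66) and cytosolic ribosomal proteins (0.57), and hardly to glycolysis (0.05). With the 13 mitochondrially encoded subunits of the same enzymes r was 0.26.

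B cells had the lowest ratio of nuclear to mitochondrial transcripts of the 4 classes compared here, with 0.233, 0.251, 0.269 and 0.301 nuclear member UMIs per mitochondrially encoded subunit UMI and the highest mitochondrial transcripts, at 66583, 64754, 63284 and 61776. Macrophages stood at 0.449, 0.468, 0.429 and 0.513 and thymocyte-like T cells at 0.796, 0.880, 0.915 and 0.95. Neutrophils, with the lowest level of both, had the highest ratio in 3 libraries and were below thymocyte-like cells in knockout infarct, at 0.886, 0.919, 1.14 and 0.928, their mitochondrial transcripts being 10946, 8890, 7253 and 9892. The filter at 10% mitochondrial UMIs caps the second quantity in every class.

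**Figure D2:**
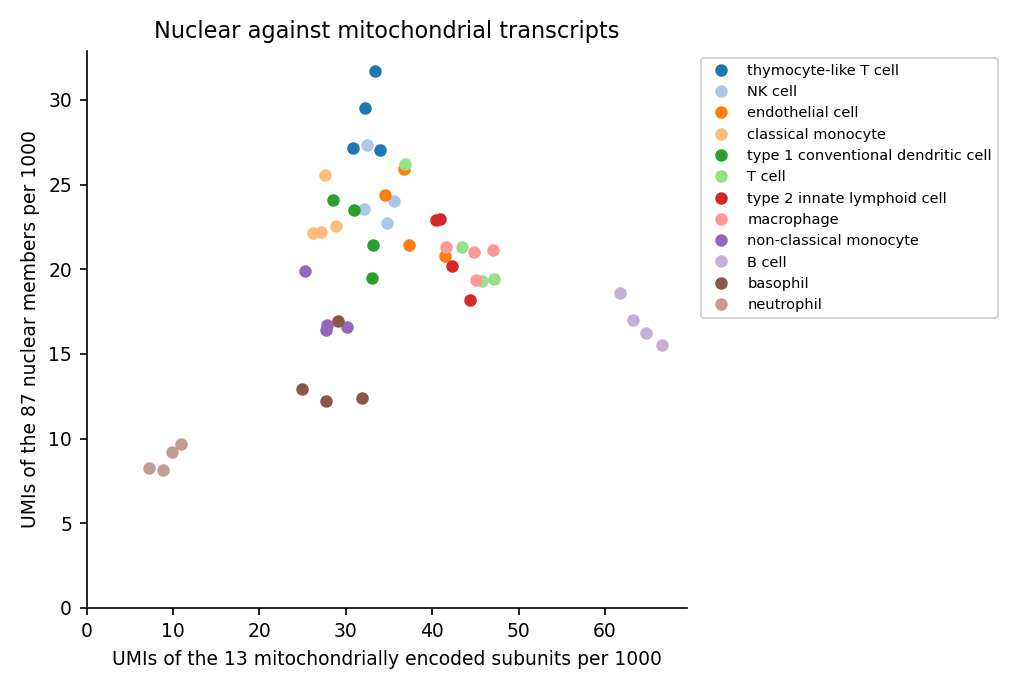
UMIs of the 87 nuclear members (y axis) against those of the 13 mitochondrially encoded subunits (x axis), both per 1000 UMIs of a class, each point being a class in a library. B cells lie far right and low, thymocyte-like T cells high at intermediate mitochondrial levels and neutrophils near the origin (r = 0.26 over 48 points).

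In macrophages, classical monocytes, B cells, T cells and thymocyte-like cells, dividing cells carried more of the members. Cells with at least 2 cell cycle UMIs exceeded cells with 0 in all 4 libraries in macrophages, by 0.137, 0.157, 0.124 and 0.122 on the log2 scale, in B cells by 0.372, 0.555, 0.593 and 0.552, and in T cells by 0.512, 0.551, 0.683 and 0.529. In thymocyte-like cells the difference was 0.610, 0.878 and 0.574 in the 3 libraries with enough cells. Lymphocytes therefore differed by more than macrophages in every library. Classical monocytes differed by 0.085, 0.104, 0.162 and 0.057. Non-classical monocytes went the other way in the 2 sham libraries, which alone had enough cells, at -0.078 [-0.119, -0.038] and -0.059 [-0.117, -0.001]. Neutrophils had enough only in heterozygous sham, at 0.448.

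The mitochondrially encoded subunits did not follow the members in macrophages and lymphocytes, with mean differences of 0.014 in macrophages, -0.191 in B cells, -0.285 in T cells and -0.680 in thymocyte-like cells. In classical monocytes they were higher in dividing cells, by 0.073, 0.357, 0.253 and 0.155, as they were in non-classical monocytes, by 0.273 and 0.533, and in heterozygous sham neutrophils, by 1.74. Dividing cells were deeper. In heterozygous sham macrophages the median was 13468 UMIs against 8005.5, in knockout sham B cells 13288.5 against 3417, and in thymocyte-like cells 14288 against 2034, 12789.5 against 1967.5 and 11985 against 1894 in the 3 libraries. Among cells with 5000 UMIs or more the nuclear difference was 0.119 in macrophages, 0.398 in B cells and 0.520 in T cells, while thymocyte-like cells had too few for a value. The part of depth in these differences was not tested.

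**Figure D3:**
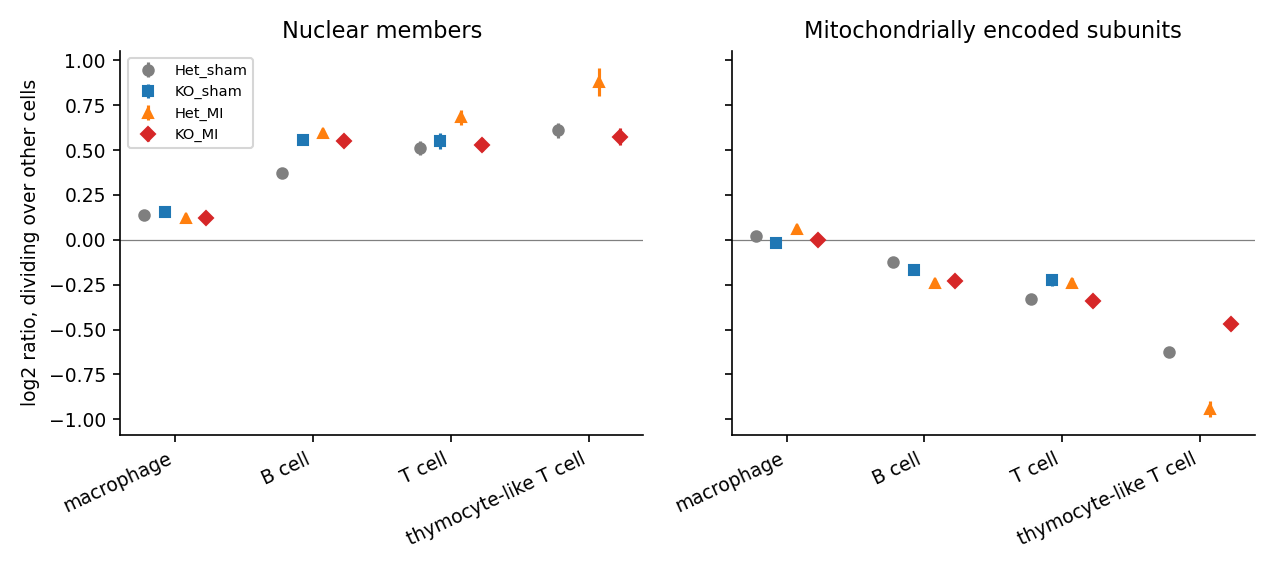
log2 ratio of summed CPM, dividing over other cells (y axis), in 4 classes and up to 4 libraries, for nuclear members (left) and mitochondrially encoded subunits (right), with bars for 95% counting intervals. All points on the left are above 0, from 0.122 to 0.878, and on the right lymphocytes are below 0.

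In macrophages 75 members had at least 100 UMIs in the non-dividing cells of every library, and 64 of them were higher in dividing cells in all 4 libraries, against 32.2% of the 4542 genes that passed this filter higher and 25.3% lower. Atp5o led (0.389, 0.487, 0.431 and 0.355), followed by Ndufab1 (0.383, 0.399, 0.374 and 0.287). The 3 members lower in all 4 were Ndufa6 (-0.335, -0.281, -0.382 and -0.263), the supercomplex factor Cox7a2l (-0.178, -0.234, -0.264 and -0.200) and Uqcrh (-0.077, -0.064, -0.148 and -0.162). These were named after their values were seen. The counting intervals of the classes and libraries differ with their cell numbers, which were 825, 1318, 890 and 1097 dividing macrophages.

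The first comparison between groups asked how PD1 loss changed these genes after infarction. In macrophages their sum was 21328 CPM in knockout infarct and 19338 in heterozygous infarct, a log2 difference of 0.14 [0.14, 0.15]. Of the 84 members with at least 200 UMIs over both libraries, 77 were above 0 and the median was 0.138, whereas the median of all 10165 genes tested was -0.106. In this difference 1 member was higher by at least 0.32 on the log2 scale, the fold threshold used below, and 0 were lower, against 4.74% of all genes higher and 12.9% lower. With TMM scaling, which adds 0.126 to every gene here, 20 of the 84 members were higher past the threshold and the sum differed by 0.27. The shares of all genes above are without TMM, and those with TMM are not given, so the 20 cannot be set against them. At 1.5-fold 0 members passed, against 2.14% higher and 1.48% lower. The medians by role were 0.173 for complex III, 0.155 for common complex IV, 0.153 for accessory and 0.106 for core subunits of complex I, 0.134 for ATP synthase and 0.050 for assembly factors. Knockout infarct macrophages also had a lower median depth, 8933 UMIs against 10887, and fewer dividing cells, 35.1% against 39.1%. Their cytosolic ribosomal protein genes had a median of 0.124, and other genes with transcripts under 1000 bases had 0.0575. The members are short, with a median longest transcript of 1005 bases against 3364 for tested genes. The part of depth and transcript length in the result was not tested.

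The X-linked members Ndufa1, Cox7b and Ndufb11 differed by 0.15, 0.18 and 0.09, close to the median of all members.

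Atp5k, subunit e at the dimer interface of ATP synthase, was the member past the fold threshold. Its level in macrophages was 178, 178, 193 and 255 CPM, so that knockout infarct stood above the 3 others, with a log2 difference from heterozygous infarct of 0.41 [0.36, 0.45]. The next were Atp5mpl, a small proteolipid of ATP synthase, at 203, 221, 231 and 285 (0.30), and Ndufa3 at 122, 124, 136 and 165 (0.28). In all 3 the knockout infarct library was highest. The lowest member was Ndufaf7, a complex I assembly factor, at 19.0, 16.5, 14.9 and 12.1 CPM (-0.30 [-0.50, -0.11]), followed by Ndufs1 at 27.5 in knockout and 30.2 in heterozygous infarct (-0.14) and Ndufb3 at 135 and 140 (-0.05).

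The second comparison was infarct against sham in heterozygous hearts. The sum in macrophages was 19338 CPM after infarction and 21142 after sham, -0.13 [-0.13, -0.12] on the log2 scale, with a median of -0.202 over the members and -0.0758 over all genes tested. Of 84 members 24 were lower past the fold threshold and 0 higher, against 17.1% of all genes lower and 11.2% higher. With TMM scaling 10 were lower and the sum differed by -0.071, the shares of all genes with TMM not being given. At 1.5-fold 1 member was lower, against 3.10% of all genes lower and 4.69% higher. The difference was uneven across roles. Core subunits of complex I had a median of -0.353, with 5 of 7 lower past the threshold, and assembly factors -0.402, with 5 of 8, while complex III was at -0.069 with 1 of 8 and common complex IV at -0.047 with 1 of 12, the last turning positive with TMM scaling. ATP synthase was at -0.276, with 6 of 17 lower, and accessory subunits at -0.180, with 6 of 29.

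The lowest members of that comparison were Ndufaf1, which helps to assemble the membrane arm, at 5.78 CPM after infarction and 9.75 after sham (-0.76 [-1.06, -0.45]), the flavin-binding core subunit Ndufv1 at 44.7 and 62.1 (-0.47) and Ndufaf4 at 11.3 and 15.6 (-0.46). The highest were Ndufa1 at 155 and 130 (0.25), Atp5md, a small membrane subunit of ATP synthase, at 204 and 174 (0.23), and Atp5e at 663 and 575 (0.21). Cell cycle RNA moved with this comparison, from 1148 CPM in sham macrophages to 773 after infarction, all 11 genes of the list being lower past the threshold. Among macrophages with no cell cycle UMI the summed difference was -0.10.

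In knockout hearts the infarct and sham libraries were close, at 21328 and 21029 CPM (0.02 [0.02, 0.03]), and the median over members was of the other sign, -0.034, though positive with TMM, which adds 0.102 here, beside -0.116 over all genes tested. There 3 members were higher past the threshold and 1 lower, against 8.0% and 15.7% of all genes, and 0 passed 1.5-fold, against 4.03% and 2.52%. The 3 were again Atp5k (0.52), Ndufa3 (0.42) and Atp5mpl (0.36), and the lowest were Ndufaf7 (-0.45), Ndufaf4 (-0.30) and Ndufab1, at 136 and 165 CPM (-0.28). This comparison shares its knockout infarct library with the first, so the shared names are not separate evidence.

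Between sham libraries the members were nearly level, with 21029 CPM in knockout and 21142 in heterozygous macrophages, a log2 difference of -0.008 [-0.013, -0.002] that was 0.07 with TMM scaling. The median was -0.032 over members, which also turns positive with TMM, and -0.068 over all genes. Here 0 members were higher and 2 lower past the threshold, against 5.69% and 8.51% of all genes, and 0 and 1 passed 1.5-fold, against 2.14% and 1.73%. The lowest were the assembly factors Ndufaf1 (-0.67), Ndufaf6 (-0.39) and Ndufaf7 (-0.20), and the highest Ndufb2 (0.21), Ndufa1 (0.19) and Ndufa5 (0.18), small accessory subunits.

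**Figure D4:**
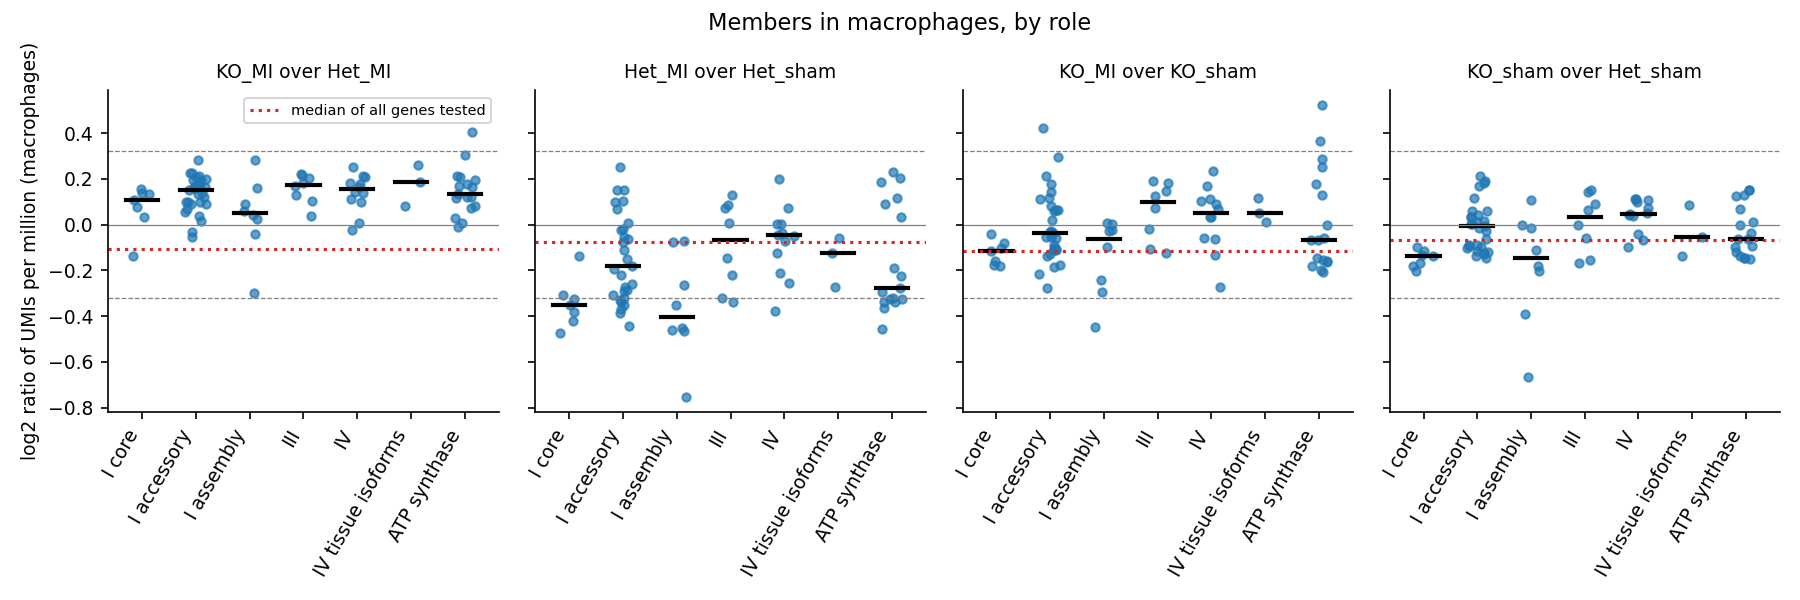
log2 ratios of CPM in macrophages (y axis) for each member tested (points), by role (x axis), in the 4 comparisons, with black bars for role medians, dashed lines at the threshold of 0.32 either way and a dotted line at the median of all genes tested. In knockout over heterozygous infarct 77 of 84 points lie above 0, and in heterozygous infarct over sham core subunits and assembly factors lie lowest, at medians of -0.353 and -0.402.

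Other parts of mitochondrial metabolism in macrophages were read beside the members. In heterozygous infarct against sham, 51 of 78 mitochondrial ribosome genes were lower past the threshold and 0 higher (median -0.367), 3 of the 6 genes of complex II and cytochrome c (-0.358) and 4 of 16 of the citric acid cycle (-0.240) were lower with 0 higher, and glycolysis had 4 higher and 4 lower of 16. Of all genes tested 17.1% were lower and 11.2% higher past the threshold, so the counts in the short lists are not read as particular to them. The succinate dehydrogenase subunit Sdhb went from 147 to 109 CPM, the cycle enzyme Mdh2 from 156 to 121 and the glycolytic enzyme Gapdh from 1751 to 1393. By contrast Cox17, the copper chaperone of cytochrome oxidase, went from 104 to 134 and Mrpl52 from 134 to 158. The 13 mitochondrially encoded subunits had a median of -0.012, with 1 higher and 0 lower past the threshold, and mt-Co3 at 9674 after infarction and 10295 after sham and mt-Atp6 at 8531 and 9363. By median, the mitochondrial ribosome, complex II and cytochrome c, and citric acid cycle lists were thus lower than the mitochondrially encoded list. Glycolysis genes went both ways. The summed mitochondrially encoded level also fell, from 47102 to 45099 CPM. The median of the mitochondrially encoded list turns positive with TMM scaling, which adds 0.057 to every gene in this comparison.

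In knockout against heterozygous infarct the lists differed in sign. Medians were 0.224 for glycolysis, with 3 of 17 genes higher past the threshold, 0.124 for cytosolic ribosomal proteins, 0.078 for the mitochondrial ribosome, 0.044 for complex II and cytochrome c and 0.020 for cytochrome oxidase assembly. They were -0.105 for the citric acid cycle, -0.108 for mitochondrially encoded subunits, -0.111 for the hypoxia list and -0.129 for regulators of mitochondrial biogenesis. The last 4 lay close to the median of all genes tested in this comparison, given above. TMM scaling adds 0.126 to every gene here, which turns the first 3 of these 4 positive. Pkm, which makes pyruvate, was at 444 CPM in knockout and 380 in heterozygous infarct and Gapdh at 1638 and 1393. The regulators Yy1 (139 and 169) and Nrf1 (22.6 and 25.6), whose motifs stand in member promoters, were both lower in knockout infarct. The interval of the Nrf1 log2 difference, -0.18 [-0.33, -0.04], includes the median of all genes tested. That of Yy1, -0.28 [-0.33, -0.22], does not. Cytochrome c (Cycs) was at 139 and 122, Cox14 at 108 and 106, Idh3g at 83.7 and 79.5, and the hypoxia-list genes Higd1a at 87 and 77.2 and P4ha1 at 54.5 and 58.8. Mrpl33 was at 209 and 195, Rpl13 at 4006 and 3627 and Rps24 at 4163 and 3902.

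Markers of other cells were also counted in the macrophage gate. The 8 cardiomyocyte genes summed to 238, 177, 124 and 132 CPM, the 5 fibroblast genes to 12.9, 50.4, 112 and 43.6 and the 5 erythroid genes to 22.5, 9.06, 28.9 and 159. The cardiomyocyte sum was 12.9 to 29.4 CPM in classical monocytes and 13.1 to 26.3 in B cells, below macrophages in every library. It was above macrophages in endothelial cells (360 to 1732) and in heterozygous sham neutrophils (864). Cardiomyocytes are rich in respiratory chain RNA, and their markers in macrophages were highest in the sham libraries, as was the member sum in heterozygous hearts. Their part in that difference was not tested.

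The members were also higher in knockout than in heterozygous infarct in the 5 further classes with at least 100 cells in both libraries. The difference in the sum was 0.43 [0.40, 0.46] in T cells, 0.26 [0.23, 0.29] in non-classical monocytes, 0.18 [0.16, 0.20] in classical monocytes, 0.15 [0.09, 0.21] in neutrophils and 0.13 [0.11, 0.14] in B cells. The medians over members were 0.444, 0.277, 0.199, 0.152 and 0.147, against all-gene medians of 0.054, -0.074, -0.045, -0.033 and -0.092. In T cells 47 of 66 members were higher past the threshold and 1 lower, against 25% and 23.4% of genes. In non-classical monocytes the counts were 23 and 0 of 63, against 10.1% and 20.2%, and in classical monocytes 16 and 0 of 73, against 7.44% and 15.7%. In neutrophils they were 1 and 0 of 11, against 11.5% and 13.5%, and in B cells 3 and 1 of 75, against 2.47% and 17.0%. Short genes outside the members moved the same way in these classes, with medians of 0.306 in T cells, 0.183 and 0.134 in non-classical and classical monocytes, 0.026 in neutrophils and 0.110 in B cells. Classes with fewer cells were mostly higher too: NK cells (27352 against 22746 CPM), endothelial cells (25932 against 20758) and basophils (16952 against 12929). So were thymocyte-like T cells (31727 against 29509), type 2 innate lymphoid cells (22978 against 20204) and type 1 conventional dendritic cells (24109 against 23502). Mast cells (17177 against 18295) and type 2 conventional dendritic cells (21933 against 23136) were lower. The class comparisons use the same 2 libraries, which differ in Y-linked RNA, and genotype and library cannot be told apart.

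The T cell gate was small, with 174, 165, 155 and 177 cells, and held innate-like cells, its leading genes including Nkg7, Klrd1, Gzmb and Trdc. Its dividing share was 42.5%, 15.8%, 16.1% and 29.9%, and with only cells free of cell cycle UMIs the difference was 0.41. Ndufab1 was the highest T cell member, at 153 CPM in knockout and 71.1 in heterozygous infarct (1.11 [0.70, 1.53]), and Cox7a2l the lowest, at 413 and 528 (-0.35 [-0.54, -0.17]). Over the 4 libraries Ndufab1 was at 181, 98.0, 71.1 and 153, so it was highest in the 2 libraries with the most dividing T cells. Against knockout sham, knockout infarct T cells were highest in Atp5k, at 315 and 137 (1.20), and lowest in Cox7a2l, at 413 and 598 (-0.53). In heterozygous infarct against sham Ndufab1 was lowest (-1.35) and Ndufa6 highest, at 288 and 212 (0.44), and between sham libraries the same genes were lowest (-0.89) and highest (0.45).

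In classical monocytes Atp5md led knockout against heterozygous infarct, at 382 and 263 CPM (0.54 [0.39, 0.70]), and Cox7a2l was lowest, at 433 and 492 (-0.18). Atp5md was also highest in knockout infarct against knockout sham (0.72), where Uqcrc1 was lowest (-0.25). In non-classical monocytes Ndufa3 led, at 201 and 113 (0.83 [0.50, 1.17]), with Uqcrc1 lowest, at 77.3 and 91.6 (-0.24), and Ndufa3 also led against knockout sham (0.84), with Ndufa10 lowest (-0.16). In B cells Ndufa3 led, at 144 and 109 (0.40 [0.22, 0.58]), with Ndufs1 lowest, at 23.1 and 31.3 (-0.44), and in neutrophils Cox6b1 led, at 240 and 180 (0.41 [0.01, 0.82]).

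The remaining extremes of these classes were as follows. In heterozygous infarct against sham, Ndufs4 was lowest in classical (-0.40) and non-classical monocytes (-0.60), where Ndufa3 (0.44) and Ndufa5 (0.53) were highest. In B cells Ndufs3 was lowest (-0.29) and Atp5k highest (0.59), and in neutrophils Atp5b, the catalytic subunit, was lowest (-0.76) and Atp5e highest (0.28). The heterozygous sham neutrophils also carried 864 CPM of cardiomyocyte RNA and 8.78% dividing cells, against 92.0 CPM and 0.513% after infarction, and the part of these in the neutrophil values was not tested. Between sham libraries, Uqcrc2 (-0.30) and Ndufc1 (0.27) bounded classical monocytes, Ndufs8 (-0.47) and Ndufc1 (0.33) non-classical monocytes, Ndufa9 (-0.27) and Uqcr11 (0.37) B cells, and Cox7a2 (-0.59) and Atp5e (0.18) neutrophils. In knockout infarct against knockout sham, Ndufs1 (-0.28) and Atp5k (0.68) bounded B cells and Cox6c (-0.16) and Cox5b (0.59) neutrophils. These classes have few UMIs per gene, and several of the counting intervals include 0.

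The tissue isoforms of complex IV were rare, with an exception in plasmacytoid dendritic cells, which make type I interferon. Cox6a2, the form of Cox6a used in heart and skeletal muscle, was at 608, 1026, 1380 and 1155 CPM in the 3, 7, 7 and 11 cells of that class, and 3, 6, 6 and 9 of these cells had a UMI. It made up 75.0%, 78.6%, 86.5% and 79.3% of Cox6a1 plus Cox6a2 UMIs there. In macrophages Cox6a2 was at 6.31, 5.74, 5.23 and 5.95 CPM, with a UMI in 5.82% to 6.62% of cells at median depths of 8933 to 10992, and in B cells at 1.09, 0.678, 1.64 and 1.20, in 0.372% to 1.05% of cells at 3216 to 4231. With each cell thinned to 2000 UMIs the shares were 1.13% to 1.46% and 0.0979% to 0.165%. The plasmacytoid cells lay above every other class shown in each library. Pooled over libraries they gave 249 UMIs in 28 cells, 1124 [989, 1273]. The 2, 6, 6 and 10 cells of that class with 0 cardiomyocyte UMIs were at 866, 1045, 1186 and 1325 CPM.

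Cox7a1 and Cox8b, the other muscle forms, behaved differently from each other in macrophages. Cox7a1 was at 9.01, 9.57, 8.65 and 10.4 CPM, in 8.99% to 10.8% of cells, against 1.27, 0.847, 1.02 and 1.5 in B cells and 1.66, 1.34, 3.99 and 2.41 in classical monocytes. Macrophages were above both in every library, and with cells thinned to 2000 UMIs 1.71% to 2.22% of macrophages and 0% to 0.164% of B cells had a UMI. In macrophages with 0 cardiomyocyte UMIs Cox7a1 was at 9.26, 8.10, 8.44 and 10.8, and in those with 5 or more at 11.1, 12.3, 8.19 and 13.9. Cox8b was at 2.33, 1.83, 1.58 and 2.73 over all macrophages, but at 0.759, 0.251, 0.482 and 0.822 with 0 cardiomyocyte UMIs and 6.55, 3.77, 5.12 and 13 with 5 or more. Macrophage Cox6a2 followed Cox8b, at 3.34, 3.09, 3.29 and 2.95 with 0 and 15.9, 12.1, 12.1 and 13.6 with 5 or more cardiomyocyte UMIs.

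Cox6b2, known from testis, was at 18.7, 21.8, 19.4 and 13.3 CPM in classical monocytes, 23.8, 15.4, 24.3 and 28.3 in thymocyte-like T cells and 8.16, 7.86, 7.49 and 7.93 in macrophages. Classical monocytes were above macrophages in every library. The highest values were in mast cells, 45.0, 46.5, 72.7 and 57.9, from 5, 6, 21 and 4 UMIs. Cox4i2, the lung form of Cox4, and Ndufa4l2, a hypoxia-induced relative of the complex IV subunit Ndufa4, stood out in the endothelial gate. Cox4i2 was there at 38.4, 39.3, 72.1 and 47.4 CPM against 0.936 to 2.44 in macrophages, and Ndufa4l2 at 45.8, 131, 160 and 108 against 0.477 to 1.03. Ndufa4l2 came from 3, 6, 7 and 9 of 42, 52, 43 and 74 endothelial cells. The sort was for CD45+ cells, and whether these endothelial cells are single cells was not tested.

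**Figure D5:**
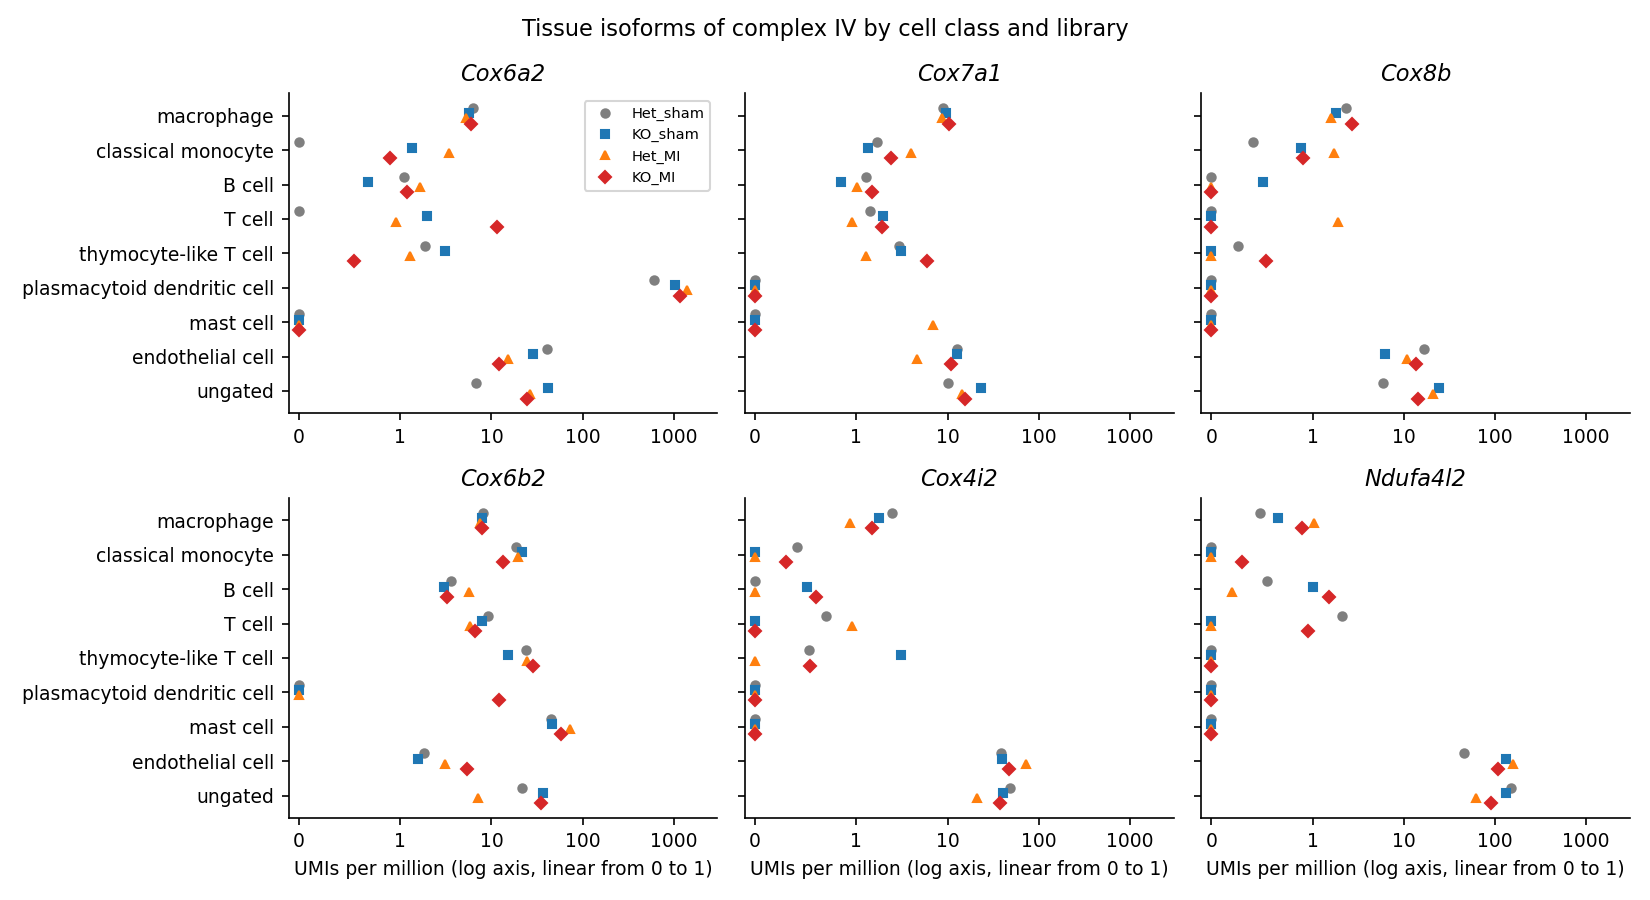
CPM of the 6 tissue isoforms (x axis, log scale, linear from 0 to 1) in selected cell classes (y axis) and 4 libraries (symbols). Cox6a2 lies at 608 to 1380 in plasmacytoid dendritic cells, and Cox7a1 in macrophages at 8.65 to 10.4.

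The c-ring of ATP synthase is built from an identical peptide encoded by Atp5g1, Atp5g2 and Atp5g3. In macrophages Atp5g2 gave 49.1%, 47.7%, 49.2% and 48.5% of the UMIs of these genes, Atp5g1 28.5%, 29.3%, 27.7% and 29.1% and Atp5g3 22.4%, 23.0%, 23.1% and 22.4%. Groups therefore differed little in this split. Non-classical monocytes used more Atp5g3, at 34.2%, 33.4%, 33.0% and 32.6%, above macrophages in every library. Being above macrophages was not particular to them. Classical monocytes (26.4%, 27.9%, 26.5% and 26.5%), B cells, T cells and thymocyte-like T cells also were in every library, at lower shares than non-classical monocytes.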

How the data were processed

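Libraries of CD45+ cells were made with the 10x 3′ v3 chemistry; Cell Ranger 6.1.1, Seurat 4 and the build mm10 (GRCm38) are named in the submitters' processing notes, whereas the deposited matrices carry Cell Ranger 4.0.0, per the file headers. The authors deposited filtered UMI counts per gene and cell, and these raw counts were used here. Gene positions and transcript lengths came from GENCODE vM21.

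A cell was assigned to the class with the highest scaled marker score (mean of the natural log of 1 plus UMIs per 10000, over the class's markers) if at least 3 of its markers were detected, and was set aside as a mixed droplet if another lineage reached 50% of that score. No doublet caller was run. Thymocyte-like, immature neutrophil and pro-B cells were then split off by their own markers. Counts were summed per class and library and given UMIs of that class. Ratios carry exact conditional binomial intervals and levels exact Poisson intervals, at 95%. Genes with at least 200 UMIs over both libraries were tested for passing a log2 ratio of 0.32 or a 1.5-fold change; no p-value was computed.

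Alternatives were TMM scaling (edgeR 4.0.16 in R 4.3.3), another denominator, stricter gates, mixed droplets kept, depth and mitochondrial limits, equal weight per cell and dividing cells left out. Named genes were the 2 members with the most UMIs per role, all tissue isoforms, the extremes of each comparison (3 each way in macrophages, 1 in other classes), the 6 members of largest range over classes and the 2 most counted genes per pathway. Members and lists were chosen with earlier results of these data known, and the gating limits after seeing the data. The calculation of ratios and intervals was checked on counts simulated with counting error only, so the check does not cover the spread between cells or animals. Python 3.11.15, numpy 2.4.6, scipy 1.17.1, pandas 2.3.3 and matplotlib 3.10.9 were used.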

Additional observations from a re-analysis of the deposited data

Results flagged for a closer look

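In macrophages the summed level of the members differed from sham in opposite directions in the 2 genotypes. After infarction it was lower in heterozygous hearts, by -0.129 on the log2 scale (19338 against 21142 CPM), and higher in knockout hearts, by 0.0204 (21328 against 21029). In knockout hearts the median over the members was of the other sign, -0.034, with 36 of 84 above 0, and the sum differed by 0.00843 with equal weight per cell. Each value rests on 1 library per group, and the difference between them was not tested.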

How the results depend on the processing

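Of the 4 macrophage comparisons only knockout against heterozygous sham changed direction, from -0.00775 to 0.0739 with TMM scaling, which moved the log2 ratios of all genes by 0.0817 there. Knockout against heterozygous infarct (0.141) was 0.168 with a denominator without mitochondrial, ribosomal protein and haemoglobin genes, 0.267 with TMM, 0.164 with mixed droplets kept, 0.131 with a mitochondrial limit of 5%, 0.128 with equal weight per cell and 0.155 in cells with no cell cycle UMI. Heterozygous infarct against sham (-0.129) was -0.136, -0.0714, -0.145 and -0.0995 with that denominator, TMM, equal weight and no cycle UMI. Knockout infarct against sham (0.0204) was 0.0386, 0.122, 0.0563, 0.00843, 0.0433 and 0.0685 with the denominator, TMM, mixed droplets, equal weight, dividing cells left out and no cycle UMI. Knockout against heterozygous sham was -0.0173, -0.0258, -0.0258 and -0.0134 with mixed droplets, equal weight, dividing cells left out and no cycle UMI.

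With TMM the knockout against heterozygous infarct difference was 0.542 in T cells, 0.275 in classical monocytes, 0.379 in non-classical monocytes and 0.232 in B cells. It was 0.289 in non-classical monocytes and 0.170 in B cells with the other denominator, and 0.215 in classical monocytes and 0.154 in B cells with no cycle UMI. The counts of members past 0.32 on the log2 scale (1, 24, 4 and 2 in the order of the report) became 0, 1, 0 and 1 at 1.5-fold and 20, 10, 8 and 1 with TMM. Shares of all genes with TMM are not given, so the TMM counts have no background beside them. The thymocyte-like to neutrophil difference (1.71) was 2.20 with the other denominator, 1.30 with mixed droplets, 1.48 with equal weight and 1.12 without dividing cells. The dividing cell difference became 0.176 in macrophages and 0.636 in B cells from 10 cycle UMIs, 0.119 and 0.398 in cells with 5000 UMIs or more, and 0.466 in T cells with mixed droplets kept. Cox6a2 in plasmacytoid dendritic cells was at 843 CPM with mixed droplets kept. Chosen after seeing the data were the setting with no cycle UMI and the settings for T cells, classical and non-classical monocytes, B cells, TMM counts, dividing cells and plasmacytoid cells. The causes were not tested.

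No paired analysis was possible because each group has 1 library. Leaving out a library would end a comparison for the same reason, and animals, sex, batch and group cannot be told apart. Depth limits single members outside macrophages: between 11 and 18 reached 200 UMIs in neutrophils.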
